A study of Homo sapiens with 12 samples.

Results

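The genes described here encode aminoacyl-tRNA synthetases, the enzymes that charge tRNAs with amino acids. They were taken by gene symbol from a fixed list, and the list was split by name, with symbols ending in 2 placed in the mitochondrial class and the others in the cytosolic class. All 36 listed genes, 20 cytosolic and 16 mitochondrial, were found among the 60662 genes of the deposited table. Each of the 36 also passed the expression filter, for which 4 or more samples had to reach 0.5 TPM and which left 16815 genes for testing. TPM is a gene's length-corrected share of all transcripts in a sample, scaled to a common total.

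Gene expression was measured by RNA-seq in NCI-H295R cells, a cortisol-producing line derived from a human adrenocortical carcinoma, in 12 samples of 4 biological replicates per group. All cultures were kept without serum for 12 h before treatment. The 3 groups then received vehicle (VEH; 0.1% DMSO), CJ28 at 30 µM or metyrapone (MET) at 30 µM for 24 h. CJ28 is a benzimidazolylurea derivative and metyrapone blocks the enzyme of the last step to cortisol, and both were used as inhibitors of cortisol synthesis. The cells came from a single tumor line, so the replicates measure spread between cultures and not between people.

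An aminoacyl-tRNA synthetase joins an amino acid to its matching tRNA and thereby sets which residue the ribosome inserts at each codon. Human cells use separate nuclear-encoded sets for the cytosol and for the mitochondrial matrix, but GARS1 and KARS1 each serve both compartments, and mitochondrial glutaminyl-tRNA is made by amidation of a tRNA first charged by EARS2. Several cytosolic synthetases are held together in the multisynthetase complex. Many cytosolic synthetase genes are known targets of ATF4, the transcription factor induced when amino acids are short or when the integrated stress response is active through other kinases.

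All 7 adrenocortical marker genes examined were expressed in VEH, with mean TPM from 0.863 for HSD3B2 to 92.6 for CYP11A1. The chromaffin markers TH, DBH and PNMT had VEH means of 0, 0.01 and 0.01 TPM and CHGA had 0.808. None of 6 fibroblast, endothelial and leukocyte markers passed the filter, COL1A1 being the highest at 0.648 TPM. The 7 adrenocortical markers were all lower in CJ28 than in VEH, with a median log2 fold change of -1.39. Between 29463 and 31016 genes were above 0 TPM per sample, and no pair of samples held identical values. Nuclear protein-coding genes made up 24.3 to 24.8% of the TPM in VEH, 24.1 to 24.6% in MET and 21.3 to 21.4% in CJ28. The median log2 fold change over all genes tested was -0.13 for CJ28 against VEH as deposited, 0.014 after median-of-ratios scaling and 0.088 when only nuclear protein-coding transcripts were counted. Among genes called, 65.1% were lower in CJ28 as deposited, against 47.4% and 40.2% under these other scalings. In bulk RNA such as this, fewer cells and less RNA per cell cannot be told apart, and TPM keeps neither.

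The promoter sequences of the genes were searched for the core of the C/EBP-ATF response element (CARE), TGATGNAA, the element through which ATF4 acts together with a C/EBP partner. The windows, 250 bases before to 50 bases after the start in RefSeq on GRCh38.p14, were given for 30 of the 36 genes and not for LARS1, TARS3, VARS1, YARS1, AARS2 and VARS2. Some genes had 2 windows, for 2 starts, and a gene was counted if any of its windows matched. The core was present on either strand for 7 of 16 cytosolic genes (43.8%) and 1 of 14 mitochondrial genes (7.14%) with a window. The share was 2.75% of the 10567 tested genes with a window and 4.46% of all 27305 genes with a window. The 8 matches are shown because the expression of the genes that hold them is compared later with that of the genes that do not. Each is printed 5′ to 3′ on the strand that carries the motif, in 30 bases with the 8 motif letters in capitals.
AARS1: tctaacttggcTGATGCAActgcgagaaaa
CARS1: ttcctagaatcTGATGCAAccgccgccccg
GARS1: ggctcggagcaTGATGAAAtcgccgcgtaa
IARS1: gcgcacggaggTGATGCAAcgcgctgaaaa
MARS1: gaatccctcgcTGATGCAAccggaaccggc
NARS1: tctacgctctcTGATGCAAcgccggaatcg
TARS1: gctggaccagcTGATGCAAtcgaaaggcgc
YARS2: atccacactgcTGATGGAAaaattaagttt
The cytosolic matches began close to the RefSeq start of their window. CARS1, GARS1 and TARS1 had 2 windows each, and the match lay in only 1 of them. The first motif base in the direction of the gene lay 2 bases upstream of the start in CARS1 (chr11:3057407-3057436), 4 in MARS1 (chr12:57488053-57488082), 13 in IARS1 (chr9:92293692-92293721) and 33 in GARS1 (chr7:30594834-30594863). AARS1 was the exception, with the match 187 bases upstream (chr16:70289675-70289704). In NARS1 (chr18:57621804-57621833) and TARS1 (chr5:33440956-33440985) it lay 14 and 2 bases downstream. The match of YARS2, the mitochondrial tyrosyl enzyme, lay 197 bases upstream (chr12:32756076-32756105). It was on the strand of the gene in NARS1 and YARS2 and on the opposite strand in the others. The RefSeq start of the matching window was not always that of the gene in the deposited expression values. It lay 12623 bases downstream of the latter in MARS1, 377 in NARS1, 269 in TARS1 and 190 in CARS1. In AARS1, GARS1, IARS1 and YARS2 the distance was 0 to 59 bases. A letter match describes these windows and does not show that a factor binds there.

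Under vehicle, the cytosolic genes were mostly the more abundant class. Their VEH means had a median of 32.4 TPM, against 5.71 TPM for the mitochondrial genes. EPRS1, which encodes the bifunctional glutamyl-prolyl enzyme, was the highest by a wide margin at 300 ± 5.39 TPM (SD, n = 4), 3.26 times the next gene. It was followed by TARS1 (threonyl) at 92.2 ± 2.12 TPM and IARS1 (isoleucyl) at 83.8 ± 3.68 TPM, and the ranges of these 3 genes did not overlap. MARS1 (methionyl) at 67.6 and NARS1 (asparaginyl) at 66.4 TPM could not be ordered, as their samples overlapped. The same held for SARS1 and GARS1 at 42.7 and 42.0 TPM, and for KARS1, QARS1 and LARS1 between 35.4 and 36.8 TPM. Below these, from WARS1 at 29.5 to CARS1 at 6.24 TPM, cytosolic and mitochondrial genes were interleaved. IARS2 at 29.0 ± 1.25 and CARS2 at 26.6 ± 1.41 TPM were the highest mitochondrial genes and overlapped AARS1 at 27.9 TPM. At the bottom stood PARS2, the mitochondrial prolyl enzyme, at 2.29 ± 0.117 TPM. FARSB at 2.67 TPM and TARS3, another cytosolic threonyl gene, at 2.90 TPM were the only cytosolic genes under 5 TPM, where 7 mitochondrial genes also lay. FARSA and FARSB encode the paired subunits of one phenylalanyl enzyme, yet FARSA stood at 15.9 TPM.

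**Figure D1:**
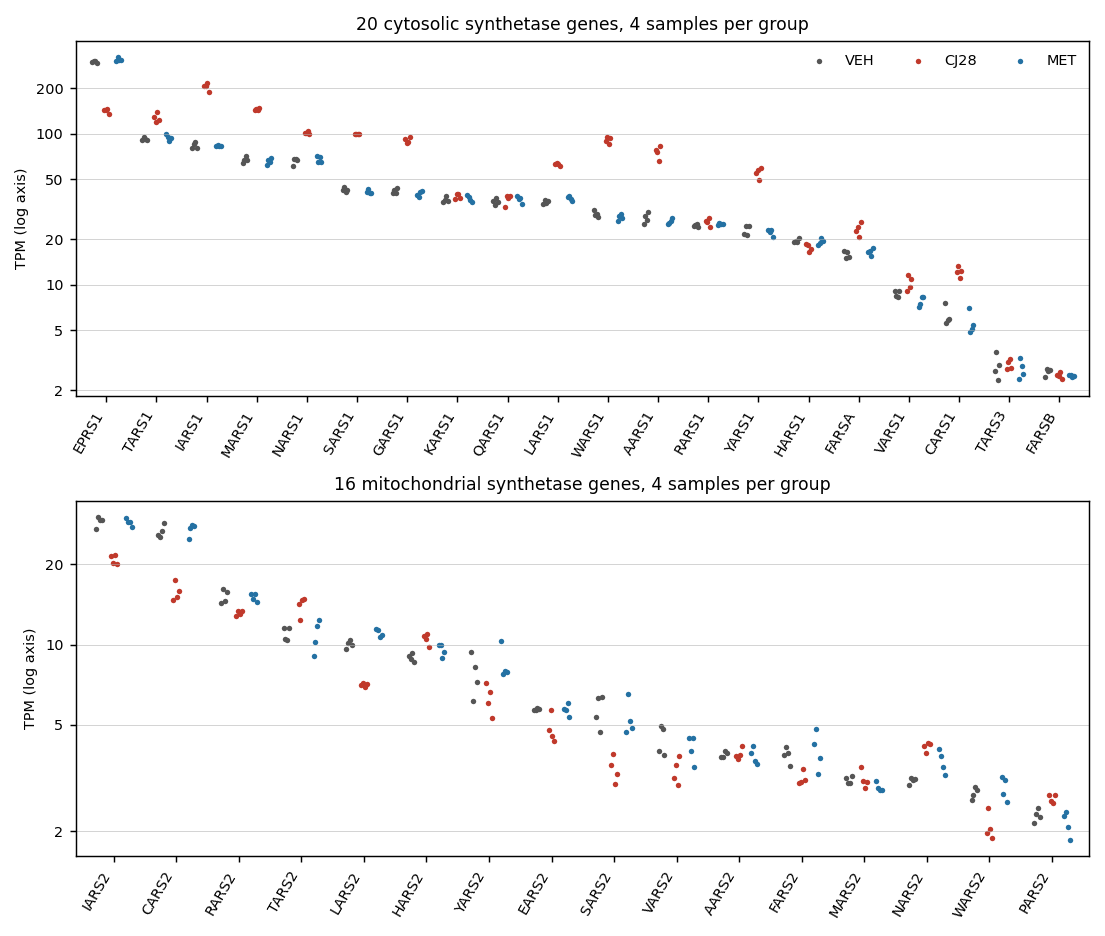
TPM of each synthetase gene (log axis) in every sample, with genes ordered by their VEH mean and 4 points per group for VEH, CJ28 and MET. The CJ28 points stand apart from both other groups for WARS1 and SARS1 (higher) and for EPRS1, IARS2, CARS2 and LARS2 (lower), while VEH and MET lie together for most genes.

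The first comparison asked how CJ28 changed these genes relative to vehicle. Most cytosolic synthetase genes rose, while among the mitochondrial ones falls outnumbered rises in the values as deposited but not on nuclear protein-coding transcripts. Of the 20 cytosolic genes, 13 were higher (65%), 2 were lower (10%) and 5 were not called by limma at a Benjamini-Hochberg adjusted p under 0.05, where 19.9% of all tested genes were called higher and 37.1% lower. A rise of at least 1 on the log2 scale was found in 7 of them, a size reached by 2.3% of all tested genes. Of the 16 mitochondrial genes, 4 were higher (25%), 9 were lower (56.25%) and 3 were not called, and none rose by 1 or more. The median log2 fold change was 0.59 for the cytosolic and -0.26 for the mitochondrial class, beside -0.13 for all tested genes. In 14 of 20 cytosolic and 12 of 16 mitochondrial genes the CJ28 and VEH samples did not overlap, which held for 50.3% of all tested genes (57% were called in either direction). Under the other scalings named above the 13 cytosolic rises were kept and 16 were called, where 29.3% of tested genes were called higher after median-of-ratios scaling and 39.2% on nuclear protein-coding transcripts. The mitochondrial genes then had 4 rises and 5 falls, and 6 rises and 4 falls, respectively, so that their falls were near the share of tested genes called lower, 26.3% under either scaling. Those in CARS2, IARS2, LARS2 and SARS2 were called under all 3 scalings, as were the rises in NARS2, TARS2, HARS2 and PARS2.

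**Figure D2:**
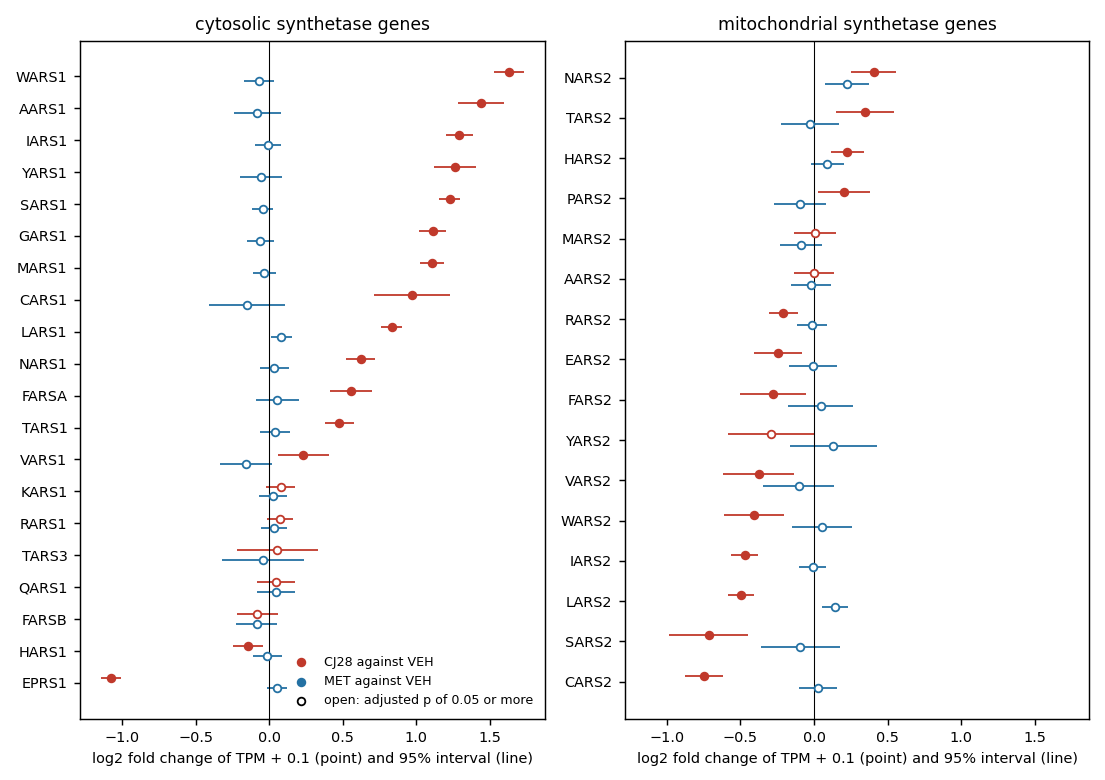
Log2 fold change of TPM + 0.1 against VEH for CJ28 (red) and MET (blue), with the 95% interval of each as a line and open points where the adjusted p was 0.05 or more. Cytosolic genes reach from 1.63 (WARS1) to -1.07 (EPRS1) with CJ28 and mitochondrial genes from 0.41 (NARS2) to -0.75 (CARS2), while all MET points are open.

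WARS1, the cytosolic tryptophanyl enzyme (chr14:100333790-100376805), changed most. Its TPM was 31.6, 28.9, 29.3 and 28.1 in VEH and 89.5, 94.99, 86.4 and 94.3 in CJ28, which makes a log2 fold change of 1.63 (SE 0.046, adjusted p = 2.86e-11), or 3.09-fold. The MET samples, at 26.7, 28.5, 29.5 and 27.7 TPM, lay with VEH, and every CJ28 sample was above all 8 others.

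AARS1, which charges alanyl-tRNA, was next. Its samples were at 25.5, 28.7, 26.8 and 30.6 TPM in VEH and 78.4, 76.1, 65.8 and 83.6 TPM in CJ28 (log2 fold change 1.44, SE 0.073, adjusted p = 5.09e-09). MET gave 25.2, 25.6, 26.5 and 27.9 TPM, well under the lowest CJ28 sample.

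IARS1, the isoleucyl enzyme of the multisynthetase complex, went from 80.7, 85.5, 88.3 and 81.0 TPM to 207, 207, 218 and 191 TPM (log2 fold change 1.29, SE 0.041, adjusted p = 7.81e-11). With CJ28 it was the most abundant synthetase transcript, at a mean of 206 TPM against 143 TPM for EPRS1, the reverse of their order in VEH. MET samples held 82.7, 84.5, 83.0 and 82.9 TPM. The small nucleolar RNA gene SNORA84 lies inside IARS1 on the same strand, with means of 79.2 ± 17.6 TPM in VEH and 108 ± 33.4 TPM in CJ28.

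YARS1, the tyrosyl enzyme, stood at 21.9, 24.7, 21.5 and 24.6 TPM in VEH, at 54.8, 57.9, 49.9 and 59.9 TPM in CJ28 and at 23.0, 22.4, 23.0 and 20.7 TPM in MET. The log2 fold change for CJ28 was 1.26 (SE 0.065, adjusted p = 6.38e-09), with no overlap between CJ28 and the other groups. SARS1, the seryl enzyme, varied little within its groups, at 42.4, 44.7, 41.2 and 42.7 TPM in VEH and 100.5, 99.7, 100.2 and 99.98 TPM in CJ28 (log2 fold change 1.23, SE 0.032, adjusted p = 1.46e-11). Its MET samples were at 41.4, 43.3, 40.5 and 40.5 TPM, again beside VEH.

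The other 8 cytosolic genes that rose spanned log2 fold changes from 0.23 to 1.11. GARS1 (glycyl, both compartments) rose from 42.0 to 90.9 TPM (1.11) and MARS1 from 67.6 to 146 TPM (1.11). CARS1, the cysteinyl enzyme, rose from 6.24 to 12.2 TPM (0.97), and LARS1, the leucyl enzyme that also serves as a leucine sensor for mTORC1, rose from 35.4 to 63.1 TPM (0.83). NARS1 (0.62), FARSA (0.55) and TARS1 (0.48) followed. The smallest of the 8 was VARS1, the valyl enzyme, at 8.75 and 10.3 TPM with overlapping samples (log2 fold change 0.23, adjusted p = 0.0262), and its adjusted p was between 0.0600 and 0.0833 without VEH-2, VEH-3, CJ28-2 or CJ28-4. DDIT3, a stress-induced transcription factor gene, overlaps 982 bases of MARS1 on the opposite strand and rose from 16.8 to 155 TPM. Whether the counting separated the strands is not given in the sources used here, and its part in the MARS1 value was not tested.

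EPRS1 (chr1:219968600-220046530) moved the other way. It fell from 298, 306, 304 and 294 TPM in VEH to 144, 145, 146 and 135 TPM in CJ28, with a log2 fold change of -1.07 (SE 0.031, adjusted p = 3.12e-11), or 2.11-fold lower. The 4 MET samples held 305, 324, 308 and 310 TPM, and each of them was above every CJ28 sample. Its share of the summed cytosolic synthetase TPM was 31.1 ± 0.348% in VEH, 32.0 ± 0.606% in MET and 10.4 ± 0.325% in CJ28. The summed cytosolic TPM rose from 965 ± 15.4 to 1373 ± 5.17 with CJ28 all the same, and without EPRS1 from 664 ± 11.6 to 1230 ± 2.47 (MET 974 ± 9.31 with and 662 ± 4.96 without). The summed mitochondrial TPM was 143 ± 2.13 in VEH, 118 ± 1.01 in CJ28 and 146 ± 2.33 in MET. The difference was smaller as a share of nuclear protein-coding TPM, at 0.0584 ± 0.000579% in VEH, 0.0556 ± 0.000443% in CJ28 and 0.0598 ± 0.000887% in MET. On that scale the cytosolic sum was 0.392 ± 0.00572%, 0.644 ± 0.00264% and 0.400 ± 0.00183%, in the same order.

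HARS1, the cytosolic histidyl enzyme, was the other cytosolic gene called lower, with samples at 19.3, 19.6, 19.2 and 20.3 TPM in VEH, 18.6, 18.4, 16.6 and 17.4 TPM in CJ28 and 18.5, 19.1, 20.6 and 19.6 TPM in MET. Its log2 fold change for CJ28 was -0.14 (SE 0.046, adjusted p = 0.0173) as deposited, but 0.0079 after median-of-ratios scaling and 0.061 on nuclear protein-coding transcripts, so its direction depended on the scaling. The call was also lost without CJ28-3 (adjusted p = 0.0536) or VEH-4 (adjusted p = 0.0507).

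The other 5 cytosolic genes were not called. The log2 fold change was 0.08 for KARS1 (lysyl; interval -0.02 to 0.17), 0.07 for RARS1 (arginyl; -0.01 to 0.16), 0.05 for QARS1 (glutaminyl; -0.08 to 0.18), 0.05 for TARS3 (-0.22 to 0.33) and -0.08 for FARSB (-0.22 to 0.06). KARS1, RARS1 and QARS1 were called higher under both other scalings, with log2 fold changes from 0.20 to 0.28, and RARS1 was called without CJ28-4 (adjusted p = 0.0170). TARS3 had 2.68, 3.62, 2.35 and 2.94 TPM in VEH, 2.79, 3.10, 3.21 and 2.83 TPM in CJ28 and 2.39, 3.29, 2.91 and 2.58 TPM in MET, so that the 3 groups overlapped. TARS1, the other cytosolic threonyl gene, was called higher. FARSA and FARSB also differed, at 0.55 and -0.08.

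The changes were also counted in groups defined by structure or known regulation. For comparison, 19.9% of all tested genes were called higher and 37.1% lower as deposited. Of 9 class I cytosolic genes, whose enzymes share a Rossmann-type catalytic fold, 7 were higher and 0 lower (median 0.97). Among 10 class II genes, with a different fold, 6 were higher and 1 lower (median 0.51). EPRS1, whose enzyme is bifunctional and whose transcript fell, was placed in neither class list. The 7 synthetase genes of the multisynthetase complex divided into 3 higher (IARS1, MARS1, LARS1), 1 lower (EPRS1) and 3 not called (KARS1, RARS1, QARS1), with a median of 0.08 as deposited and of 0.23 and 0.28 under the other scalings. The complex's scaffold genes were called higher in 3 of 3, led by AIMP2 from 12.0 to 25.3 TPM (1.07), with AIMP1 at 0.26 and EEF1E1 at 0.25. Of 13 cytosolic synthetase genes often listed as ATF4 targets, 12 were higher and 1, EPRS1, was lower (median 1.11). Among the 7 others, FARSA was called higher, HARS1 lower and 5 were not called as deposited (median 0.05). Under both other scalings 4 of these 7 were higher and 0 lower (medians 0.20 and 0.26). The list of 13 kept 12 higher and 1 lower there. Both lists were chosen with earlier results of these data known, so their contrast describes the values and is not a test.

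All 7 cytosolic genes with the CARE core in a promoter window were higher in CJ28, with log2 fold changes from 0.48 to 1.44 and a median of 1.11. The 9 cytosolic genes with a window but without the core had 3 higher and 2 lower as deposited, from -1.07 to 1.63 with a median of 0.07. Of all tested genes, 19.9% were higher and 37.1% lower, with a median of -0.13. Of these 9, KARS1, RARS1 and QARS1 were also called higher under both other scalings, and HARS1 was not called. The 7 genes with the core were called higher under both as well. WARS1, SARS1 and FARSA rose although these letters were not in their windows, and of the 4 genes without a window, YARS1, LARS1 and VARS1 were higher. All 7 genes with a match were among the 10 genes with a window that are often listed as ATF4 targets. Of the 6 other cytosolic genes with a window, 0 held one. That list was chosen with earlier results of these data known. YARS2, the mitochondrial gene with a match, was not called. The ETS motif CCGGAAGT was found for 5 of 16 cytosolic and 3 of 14 mitochondrial genes with a window (9.86% of tested genes). The E-box CACGTG was found for 1 and 3 (12.7%) and the NRF1 half-site GCGCATGC for 0 and 2 (6.46%), each searched on both strands.

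**Figure D3:**
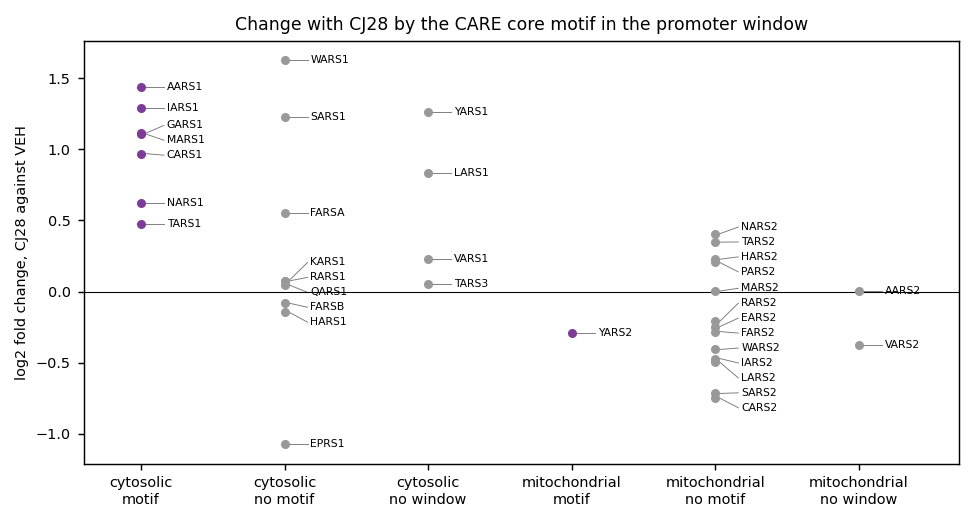
Log2 fold change of CJ28 against VEH for each synthetase gene, grouped by class and by whether any promoter window held the CARE core motif (purple), none did, or no window was given. The 7 cytosolic genes with the motif lie between 0.48 and 1.44, while those without it spread from -1.07 (EPRS1) to 1.63 (WARS1).

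Among the mitochondrial genes, CARS2, the cysteinyl enzyme (chr13:110641412-110713603), fell most. It held 25.8, 25.3, 26.8 and 28.5 TPM in VEH, 14.7, 17.4, 15.1 and 15.9 TPM in CJ28 and 25.0, 27.4, 28.1 and 27.9 TPM in MET. The log2 fold change for CJ28 was -0.75 (SE 0.059, adjusted p = 3.36e-07), and no CJ28 sample reached the range of the other groups. SARS2, the seryl enzyme, was at 5.36, 6.32, 4.72 and 6.37 TPM in VEH, 3.53, 3.88, 2.99 and 3.26 TPM in CJ28 and 4.72, 6.55, 5.18 and 4.89 TPM in MET (log2 fold change -0.72, SE 0.12, adjusted p = 0.000305). Its VEH samples varied more, but the lowest of them was still above the highest CJ28 sample.

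LARS2, the leucyl enzyme, moved from 9.61, 10.2, 10.4 and 9.95 TPM in VEH to 7.09, 7.18, 6.95 and 7.15 TPM in CJ28 (log2 fold change -0.50, SE 0.041, adjusted p = 4.60e-07). IARS2, the isoleucyl enzyme, moved from 27.2, 30.1, 29.5 and 29.3 TPM to 21.6, 20.3, 21.7 and 20.04 TPM (-0.47, SE 0.042, adjusted p = 1.05e-06), with MET at 29.9, 28.9, 28.9 and 27.7 TPM. Neither gene's CJ28 samples overlapped VEH or MET. IARS2 lies close to EPRS1 on chromosome 1, on the other strand.

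Smaller falls were called in WARS2 (tryptophanyl, -0.41), VARS2 (valyl, -0.38), FARS2 (phenylalanyl, -0.28), EARS2 (glutamyl, -0.25, with overlapping samples) and RARS2 (arginyl, -0.21). EARS2, FARS2, RARS2 and VARS2 were not called under either other scaling, nor WARS2 on nuclear protein-coding transcripts. FARS2 also lost its call without any of VEH-1, VEH-2, VEH-3, CJ28-1, CJ28-2 or CJ28-4 (adjusted p from 0.0596 to 0.0859). AARS2 (alanyl) and MARS2 (methionyl) were not called, with 95% intervals of the log2 fold change of -0.13 to 0.14 and -0.14 to 0.15, and both were called higher on nuclear protein-coding transcripts (0.21 each). YARS2 had a log2 fold change of -0.29 (adjusted p = 0.0865), and it was called without VEH-2 (adjusted p = 0.0226). YARS2 shares 18161 bases with DNM1L on the opposite strand, whose mean was 49.97 TPM in VEH and 40.7 TPM in CJ28.

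The other 4 called mitochondrial genes rose. NARS2, the asparaginyl enzyme, had 2.98, 3.17, 3.12 and 3.14 TPM in VEH and 4.18, 3.91, 4.26 and 4.23 TPM in CJ28 (log2 fold change 0.41, SE 0.070, adjusted p = 0.000301). MET samples of NARS2 lay between them, at 4.05, 3.82, 3.49 and 3.25 TPM, and the highest overlapped CJ28. TARS2, the threonyl enzyme, had 11.6, 10.5, 10.4 and 11.5 TPM in VEH, 14.2, 12.4, 14.8 and 14.8 TPM in CJ28 and 9.10, 10.2, 11.7 and 12.4 TPM in MET (0.35, SE 0.091, adjusted p = 0.00598). Its lowest CJ28 sample was above every VEH and MET sample.

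HARS2, the histidyl enzyme, had 9.06, 8.86, 9.34 and 8.63 TPM in VEH, 10.8, 10.5, 10.97 and 9.83 TPM in CJ28 and 9.95, 10.01, 8.93 and 9.40 TPM in MET (0.23, SE 0.051, adjusted p = 0.00221). PARS2 had 2.15, 2.31, 2.43 and 2.25 TPM in VEH, 2.73, 2.59, 2.54 and 2.73 TPM in CJ28 and 2.27, 2.36, 2.07 and 1.85 TPM in MET (0.20, SE 0.081, adjusted p = 0.0477). CJ28 and VEH did not overlap in either gene. The PARS2 call was lost in 7 of 8 fits that left out a CJ28 or VEH sample, all but that without VEH-3, with adjusted p from 0.0567 to 0.114. HARS1 and HARS2 lie head to head and share 108 bases on chromosome 5. HARS2 also shares 626 bases with ZMAT2 on the same strand, whose mean was 29.3 TPM in VEH and 23.7 TPM in CJ28. The part of ZMAT2 in the HARS2 value was not tested.

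The ratio of the cytosolic to the mitochondrial transcript for one amino acid was taken within a sample, with 0.1 TPM added to each. Without this constant the ratio would not depend on how TPM is scaled. In 12 of 17 such pairs the ratio was higher in every CJ28 sample than in every VEH sample, in 3 it was lower in every sample, and in 2 the groups overlapped. Each of the 15 pairs without overlap had an exact two-sided permutation p of 0.0286, the smallest that 4 against 4 samples allow. Among single genes, 50.3% of all tested did not overlap between CJ28 and VEH, and the share for other gene pairs was not computed. EPRS1 was paired with both PARS2 and EARS2, and FARS2 with both FARSA and FARSB, so the 17 pairs were not independent. The rises were largest in WARS1/WARS2, from 10.3 to 42.2 (2.04 on the log2 scale), and SARS1/SARS2, from 7.49 to 28.8 (1.94), followed by IARS1/IARS2 (1.76). CARS1/CARS2 was the pair in which the mitochondrial transcript was far the higher in VEH, at a ratio of 0.238, and with CJ28 the ratio was 0.777 (1.72). EPRS1/PARS2 (-1.28), EPRS1/EARS2 (-0.83) and HARS1/HARS2 (-0.37) were lower. The overlapping pairs were TARS1/TARS2, in which both genes were called higher, and FARSB/FARS2. The median difference over the 17 pairs was 0.84.

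**Figure D4:**
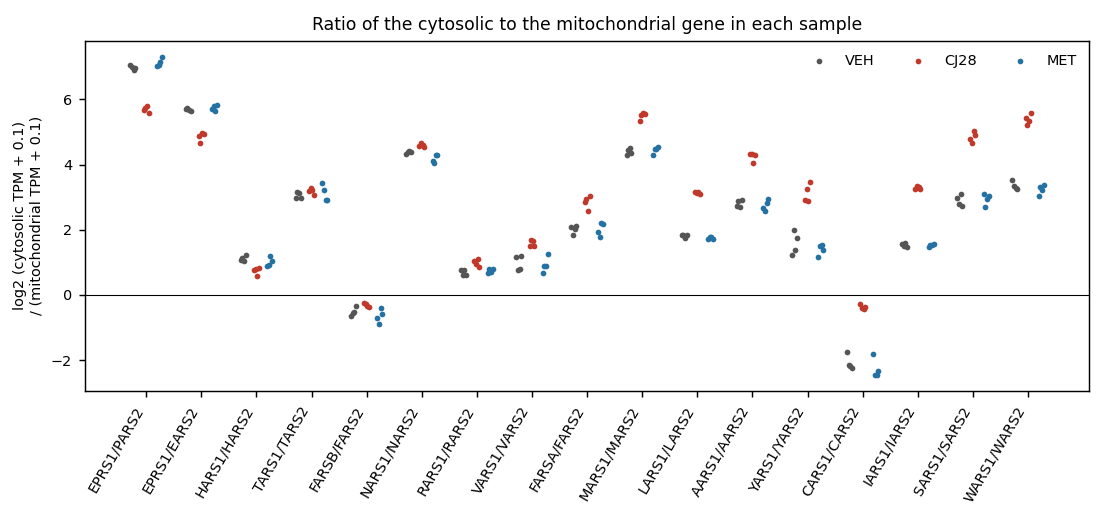
Log2 ratio of the cytosolic to the mitochondrial gene for the same amino acid in each of the 12 samples, with the 17 pairs ordered by the difference between CJ28 and VEH. At the left 3 pairs are lower with CJ28, and WARS1/WARS2 at the right shows the largest rise, 2.04.

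The other genes of tRNA charging and use did not all follow the cytosolic synthetases. XPOT, the nuclear export receptor for tRNA, rose from 40.7 to 114 TPM (log2 fold change 1.49). It was 1 of 3 higher genes (16.7%) among 18 for tRNA processing and export, of which 8 were lower (44.4%). These shares were near those of all tested genes, 19.9% higher and 37.1% lower. Those that fell most were POP1 of the RNase P complex (-1.22), TRMT10C (-0.81) and HSD17B10 (-0.45), the last 2 being subunits of mitochondrial RNase P. Other subunits differed. PRORP of mitochondrial RNase P was not called (-0.18). Of the complex with POP1, RPP38 was higher (0.28), RPP30 was lower (-0.23) as deposited only, and RPP14 and RPP40 were not called. The list had a median of -0.19 as deposited, beside -0.13 for all tested genes. Its split was 5 higher and 3 lower under both other scalings, with POP1, TRMT10C and HSD17B10 lower in each.

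Of 4 genes that complete charged mitochondrial tRNAs, QRSL1, a subunit of the glutamyl-tRNA amidotransferase, rose (0.82), while its partners GATC (-0.28) and GATB (-0.21) were called lower as deposited but not under the other scalings. Among 6 editing enzymes and peptidyl-tRNA hydrolases, PTRHD1 (-1.01) and DTD1 (-0.38) were lower and AARSD1 was higher (0.52). Both lists are short, and 19.9% of all tested genes were called higher and 37.1% lower as deposited. Cytosolic elongation factors were higher in 4 of 6, led by EEF2 (0.46) and EEF1A2 (0.36), with EEF1D (-0.19) lower as deposited only. Of 4 mitochondrial elongation factors, TSFM (-0.40) was lower under all scalings, GFM1 (-0.18) was lower as deposited only, and TUFM was called higher under the other 2 scalings alone. The 14 amino acid stress response genes divided into 13 higher and 1 lower, with a median of 1.90. TRIB3 (3.53), DDIT3 (3.20), NUPR1 (2.48) and PPP1R15A (2.33), all parts of the ATF4 pathway, rose most, while ATF5 (-0.74) was lower and the ATF4 transcript itself rose by 0.26.

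**Figure D5:**
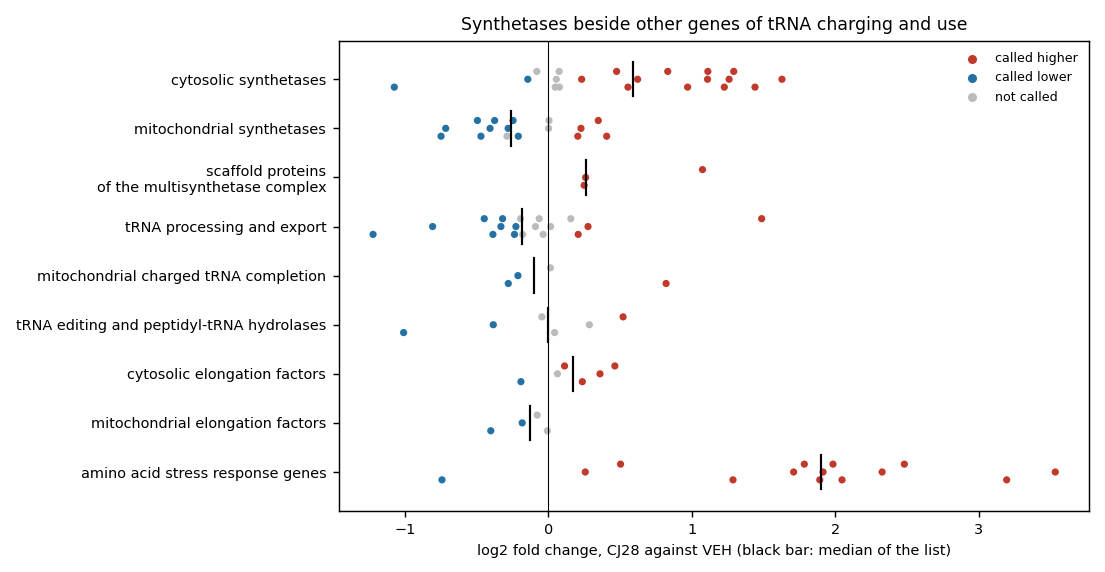
Log2 fold change of CJ28 against VEH for the genes of each list, colored by call, with the list median as a black bar. The cytosolic synthetases (median 0.59) lie between the amino acid stress response genes (1.90) and the other 7 lists drawn, and the mitochondrial synthetases lie at -0.26.

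The second comparison, of metyrapone with the same VEH samples, called no synthetase gene. None of the 20 cytosolic and 16 mitochondrial genes was called by limma, where 0.00595% of all tested genes (1 of 16815) were, and the smallest adjusted p among the 36 genes was 0.889. An unadjusted p under 0.05 was found for LARS1, LARS2 and NARS2, beside 5.2% of all tested genes. LARS2 had the smallest, with 11.4, 11.3, 10.7 and 10.9 TPM in MET, all above its VEH samples, and a log2 fold change of 0.14 (SE 0.041, interval 0.05 to 0.23, unadjusted p = 0.0045). NARS2 was at 0.22 (interval 0.07 to 0.38), also without overlap. Cytosolic log2 fold changes ran from -0.16 (VARS1) to 0.08 (LARS1) and mitochondrial ones from -0.10 (VARS2) to 0.22 (NARS2). For WARS1 and EPRS1, at -0.07 and 0.05, the 95% intervals were -0.17 to 0.03 and -0.01 to 0.12. Of the 17 ratios, NARS1/NARS2 was lower without overlap (-0.19, exact two-sided permutation p = 0.0286) and 16 overlapped. The share of all tested genes, or of other gene pairs, without overlap between MET and VEH was not computed.

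CJ28 and metyrapone were then compared at the same dose and time. Here 13 cytosolic genes were higher and 2 lower in CJ28, and 4 mitochondrial genes were higher and 9 lower, where 20.9% of all tested genes were higher and 34.6% lower. After median-of-ratios scaling, 15 cytosolic and 5 mitochondrial genes were higher and 1 and 5 lower (28.7% and 26.1% of tested genes), and on nuclear protein-coding transcripts 17 and 6 were higher and 1 and 5 lower (40.3% and 25.3%). The falls in HARS1, EARS2, FARS2, RARS2 and YARS2 were called under neither. The medians as deposited were 0.54 and -0.26. WARS1 (1.70), EPRS1 (-1.13) and CARS2 (-0.78) marked the extremes. The calls differed from those against VEH in the mitochondrial class, where YARS2 was lower than in MET (-0.42, adjusted p = 0.0185) and VARS2 was not called (-0.27, adjusted p = 0.0545). Without MET-1, whose YARS2 value of 10.3 TPM was the highest of any sample, or without CJ28-4, YARS2 was not called (adjusted p of 0.0585 and 0.0571), nor with all samples under the other scalings (0.0999 and 0.132). VARS2 was called without CJ28-4 or MET-4, HARS1 was not called without CJ28-3, CJ28-4, MET-3 or MET-4, and HARS2 and NARS2 each lost their call in 5 of the 8 fits that left out a sample. This comparison shares its CJ28 samples with the comparison against VEH, so the 2 are not independent.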

How the data were processed

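RNA-seq was performed on total RNA after ribosomal RNA depletion (TruSeq Stranded Total RNA kit). The authors trimmed reads with Cutadapt (version 2.8), aligned them to GRCh38 with STAR (version 2.7.10b) and quantified genes with RSEM (version 1.3.3), and deposited 1 table of TPM per gene. The annotation release and the strand setting are not given in the sources used here. TPM keeps no depth, so no counting error is given. Groups and replicate numbers came from the sample labels.

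A limma model (limma version 3.58.1 in R version 4.3.3, with the eBayes trend option and no covariates) was fitted to log2(TPM + 0.1) of the 12 samples together, over the 16815 genes that reached 0.5 TPM in 4 or more samples. The two-sided p-values were adjusted by the Benjamini-Hochberg method over all genes tested, and genes under 0.05 were called. Fold changes are on the log2(TPM + 0.1) scale, which understates those of low genes. The study's DESeq2 comparison used counts, which were not analysed here. Ratios within samples were compared by exact permutation tests, without adjustment over the 17 pairs. The members and all gene lists were chosen with earlier results of these data known. Values in every sample are given for the 5 cytosolic and 4 mitochondrial genes with the largest change with CJ28, for called genes opposite to most of their class, for TARS3 and for the gene with the smallest p with MET. Of other lists, up to 4 genes with the largest change are named. ATF4, ATF5, AIMP1, the further RNase P subunits and those described by their scaling were named after their values were seen. The procedure was tested on simulated data. Python (version 3.11.15), numpy (version 2.4.6), scipy (version 1.17.1), pandas (version 2.3.3) and matplotlib (version 3.10.9) were used. RSEM shares reads among similar genes, but the 14 member pseudogenes in the table reached at most 0.25 TPM.

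Alternatives were other pseudocounts (0.01 and 1), filters (none, or a mean TPM of at least 1), scalings (median of ratios, or nuclear protein-coding transcripts only), a fit without trend, a fit of the compared groups alone, a replicate block and leaving out each sample.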

Additional observations from a re-analysis of the deposited data

Results flagged for a closer look

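Dixon's test over the 4 samples of each group was applied to the TPM of the 36 synthetase genes, 108 groups in all. YARS2 in MET stood out, because MET-1, at 10.3 TPM, stood far from the nearest of the other samples, at 7.95 TPM. The gap was 0.925 of the group's range, above the test's 95% critical value. Chance alone marks about 1 in 20 groups, and here 1 of 108 was marked. YARS2 was called lower in CJ28 than in MET with this sample and not without it (adjusted p = 0.0185 and 0.0585, limma with Benjamini-Hochberg adjustment), and the call was also lost with this sample kept after median-of-ratios scaling (adjusted p = 0.0999) and on nuclear protein-coding transcripts (adjusted p = 0.132).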

How the results depend on the processing

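Over 17 alternatives for each comparison, 22 of the 36 genes kept their call for CJ28 against VEH, and no gene was called for MET against VEH under any of them (smallest adjusted p 0.71). HARS1 changed sign, to 0.0079 after median-of-ratios scaling and 0.061 on nuclear protein-coding transcripts against VEH, and to 0.060 on the latter against MET. For CJ28 against VEH, 1 cytosolic gene was called lower under both scalings, and 5 and 4 mitochondrial genes were. Leaving out a sample gave 1 to 2 cytosolic genes lower. For CJ28 against MET, 1 cytosolic gene was called lower under both scalings, without a filter, with the compared groups alone and with the replicate block, and 1 to 2 without a sample. There, 5 mitochondrial genes were lower under both scalings, and 2 were higher without a filter or with the compared groups alone, and 2 to 4 without a sample. Without a filter VARS1, FARS2 and PARS2 were not called against VEH (adjusted p = 0.0565, 0.0706 and 0.0873). For MET against VEH, the single call among all genes became 0 with either pseudocount or a mean TPM of at least 1, 5 without a filter, 2 on nuclear protein-coding transcripts and 1 to 2 without a sample. The pairs with a lower ratio in MET than in VEH numbered 0 with a pseudocount of 1, 2 with the replicate block and 1 to 2 without a sample, and those with a higher ratio 0 to 1. The cause of these shifts was not tested. Same-numbered samples did not deviate together (correlations from -0.124 to 0.039), and the labels do not say that a number marks a shared culture or day. With a replicate block, CJ28 against VEH gave 13 and 2 cytosolic and 3 and 10 mitochondrial genes higher and lower, as PARS2 was lost (adjusted p = 0.0729) and YARS2 gained (adjusted p = 0.0091). With 3 against 4 samples the exact test of a ratio cannot go under p = 0.0571.

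TPM keeps no read numbers, so counting error for genes near 2 TPM, such as PARS2, FARSB and TARS3, is unknown. Several of the smaller mitochondrial falls were called or not depending on the scaling. Values of genes that overlap others on the opposite strand (GARS1, HARS1, KARS1, MARS1, WARS1, YARS1, CARS2, EARS2, HARS2, SARS2, WARS2, YARS2) rest on a strand setting that is not given in the sources used here.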
